A study of Mus musculus with 10 samples.

Results

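The genes described here are the kallikreins (Klk), a family of secreted serine proteases, and 4 families of serine protease inhibitors: the Kazal-type Spink proteins, the clade A and clade B serpins (Serpina and Serpinb), and the whey acidic protein family (Wfdc and Slpi). They were chosen by gene symbol alone, taking every symbol of these families followed by a number, and Slpi. The rule took 141 probes for 111 genes, of 25161 named genes on the array: 27 kallikreins, 12 Kazal inhibitors, 26 clade A serpins, 27 clade B serpins and 19 members of the whey acidic protein family including Slpi.

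Kallikreins cut proteins after basic or aromatic residues. Klk1, tissue kallikrein, releases kinins from kininogens. The Klk1b genes are a rodent expansion beside it, and the kallikreins Klk5 to Klk14 include proteases that act on cell contacts in the shedding of skin. Kazal proteins block trypsin-like proteases by binding in the active site. Serpins trap a protease that cuts their exposed loop: clade A serpins are mostly secreted by the liver, and clade B serpins act largely inside epithelial cells and leukocytes. Slpi and related proteins shield mucosal surfaces from the elastase and cathepsin G of neutrophils. In the colon these families meet the proteases of epithelium, leukocytes and bacteria, and some proteases also signal through the protease-activated receptors.

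The study hybridised RNA of mouse colon tissue and of colon organoids, which are epithelial cultures grown from crypts, to 10 Agilent 2-colour arrays. Tissue came from male mice with a Trp53 deletion (KO) or without one (WT). The deletion used Axin2CreERT2 and floxed Trp53 (Trp53 fl/fl) with tamoxifen injection. All of these mice are labelled as having regenerated for 2 months after dextran sodium sulfate (DSS), a colitis agent, given at 2% in drinking water for 5 to 7 days. Each of 2 KO mice was set against 1 WT mouse on 2 arrays of opposite dye. Axin2 marks cells that respond to Wnt, so Cre acted in those cells and their descendants, while the RNA came from whole tissue.

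Organoids came in 3 groups of 2 samples each. WT and KO organoids are labelled Trp53 wild type and Trp53 knockout. The KO cultures came from VillinCreERT2 x Trp53 fl/fl mice, received 800 nM 4OH-tamoxifen for 2 days and were then selected with Nutlin-3A, which spares cells without p53. KOWI organoids are Trp53 knockout organoids labelled as Wnt-independent. WT and KO organoids grew in full medium, with 0.328 nM surrogate Wnt, 3 µM CHIR-99021 (an agent that activates Wnt signalling inside the cell), 25% R-spondin 1 conditioned medium, 100 ng/ml noggin, 50 ng/ml EGF and the TGFβ inhibitor A83-01, and KOWI organoids grew without the surrogate Wnt and CHIR-99021. The series describes the replicates as independent, but no label ties the organoid samples to separate mice, so p-values measure the spread between these samples. The age of the animals and the exact genotype of the WT animals are not given in the sources used here.

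Levels below are normalised log2 intensities and changes are log2 ratios. Testing a gene required 1 group or more whose channels all read well above background, and spots that could be fitted, and a call means an adjusted p under 0.05 (limma, Benjamini-Hochberg over all genes tested). Between 44.6% and 59.1% of spots per channel were well above background. The scanner software marked 13.7% to 16.3% of spots as outliers on the 4 arrays with KOWI RNA, and 0.808% to 4.41% on the other 6, and such spots were left out. With 2 samples a group, the number of arrays limits the precision. Trp53 was not well above background in any of the 8 KO and KOWI organoid channels and was in all 4 WT ones: its levels were 7.99 and 7.57 in WT, 6.92 and 6.99 in KO, and 7.04 and 6.94 in KOWI. In tissue Trp53 was at 9.72 and 9.84 in WT and 9.26 and 9.88 in KO, with overlapping groups.

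Several of these genes are near copies of each other, and 16 pairs of probes covering 21 of the 111 genes shared at least 34 bases at 80% identity or more. The 3 sets of probe stretches below are shown because the results for Klk1b5, Serpinb6c and Klk1 turn on probes that resemble a neighbour's. Each is a 30-base stretch of the 60-base probe as deposited, 5′ to 3′. Capitals in the first sequence of a set mark bases that differ in any other of the set, and capitals in the others mark bases that differ from the first.
Klk1b5: TaaaaatgcCtgaAtAtcacattgtCccat
Egfbp2: GaaaaatgcctgaGtGtcacattgtcccat
Klk1b16: GaaaaatgcTtgaGtGtcacattgtTccat
Serpinb6c: agtgaccttatccataaGtGCaatgAcaGC
Serpinb6a, dimmer probe: agtgaccttatccataagtgcaatgGcaAT
Serpinb6e: agtgaccttatccataaAtATaatgacagT
Klk1: cccGtcaaAtATGaataCccagatgaGctc
Klk1b4: cccAtcaaGtTCAaataTccagatgaTctc

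The array's design file places the Klk1b5 probe at chr7:51476012-51476071 (mm9, plus strand), the Klk1 probe at chr7:51484170-51484325 (plus strand), and the Serpinb6c probe at chr13:33971703-33971762 (minus strand). Klk1b5 and Egfbp2, a kallikrein known as an EGF-binding protein and by its symbol not in the chosen set, matched at 54 of 59 aligned bases. The RefSeq gene names place the Egfbp2 probe under the member Klk1b26, and the 2 were kept apart by their symbols on the array. Serpinb6c and the dimmer Serpinb6a probe matched at 39 of 42. The annotation of these places as exon or UTR was not analysed here.

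Of the 111 genes, 63 were well above background in at least 1 group of tissue or organoids, and 48 in neither, among them 14 of 26 clade A serpins. In tissue 53 genes were tested, 57 were not above background and Klk12 was lost to outlier spots. In organoids 22 were tested, 72 were not above background and 17 were lost to outlier spots, and 19 were tested in both. Since a gene entered through 1 group alone, the 53 and 22 are not the families as a whole. In tissue Wfdc2, Serpinb8, Serpinb1a and Slpi read between 17.27 and 17.79 in every mouse. Some skin-type members, such as Klk8, Klk13, Serpinb2, Serpinb3a and Spink5, were tested in tissue and were not above background in organoids. Others were above background there, such as Klk9, Klk11, Serpinb5 and Serpinb11. Of the 12 kallikreins from Klk4 to Klk15, 5 were above background in organoids.

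In tissue, the question was which of these genes differ between KO and WT colon after regeneration from DSS. No gene of the array was called: 0 of 13662 tested genes, 0% in each direction, with a smallest adjusted p of 0.256 and 2018 genes at an unadjusted p under 0.05. None of the 53 members was called either, and 19 of them had an unadjusted p under 0.05. Of the 53, 38 had a higher mean in KO and 15 a lower one, and the median log2 ratio was 0.26, against -0.00 over all genes. Both mouse pairs were above 0 for 27 of 53 (50.9%), where 32.3% of all tested genes were, and both were below 0 for 13 (24.5%), where 34.6% were.

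The whey acidic protein family held the largest ratio of the set in tissue. Wfdc21, a small secreted member expressed in mouse myeloid cells, was at 7.98 and 7.67 in the WT mice and at 10.43 and 9.87 in the KO mice. Both KO mice lay above both WT mice. The log2 ratio was 2.33 (SE 0.10, n = 2 pairs, 5.02-fold, adjusted p = 0.256), 2.46 in pair 1 and 2.20 in pair 2, and the probe was well above background in 3 of 4 WT channels. It was the only one of the 53 members over 2-fold higher in both pairs (1.89%), where 0.608% of all tested genes were. The probe lies at chr11:83566028-83566087 (mm9, plus strand). In organoids Wfdc21 was not above background in any group.

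Wfdc12 was at 8.84 and 8.64 in WT and 10.24 and 9.33 in KO, a log2 ratio of 1.05 (SE 0.23, adjusted p = 0.290). Wfdc18, an extracellular proteinase inhibitor first described in mammary gland, was at 16.54 and 16.22 in the WT and KO mouse of pair 1 and at 12.75 and 12.38 in those of pair 2. The pairs thus lay far apart while the KO mouse was lower in each, by a mean log2 ratio of -0.35 (SE 0.06, adjusted p = 0.277). Slpi, the secretory leukocyte protease inhibitor, was at 17.29 in both WT mice and at 17.37 and 17.27 in the KO mice. Its groups overlapped, with a log2 ratio of 0.03 (SE 0.07, adjusted p = 0.879).

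Among the Kazal inhibitors, Spink1 and Spink2 went opposite ways. Spink1, the trypsin inhibitor of pancreas that is also made by gut epithelium, was at 16.52 and 15.50 in WT and 15.48 and 14.85 in KO. Both WT mice lay above both KO mice, the nearest of them almost level, with a log2 ratio of -0.85 (SE 0.13, adjusted p = 0.267). Spink2, an inhibitor best known from testis, was at 7.93 and 8.78 in WT and 8.82 and 9.56 in KO, a log2 ratio of 0.84 (SE 0.07, adjusted p = 0.256), with 0.90 and 0.78 in the pairs. Spink12 was at 7.46 and 7.74 in WT and 8.97 and 8.40 in KO, a log2 ratio of 1.08 (SE 0.27, adjusted p = 0.317).

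**Figure D1:**
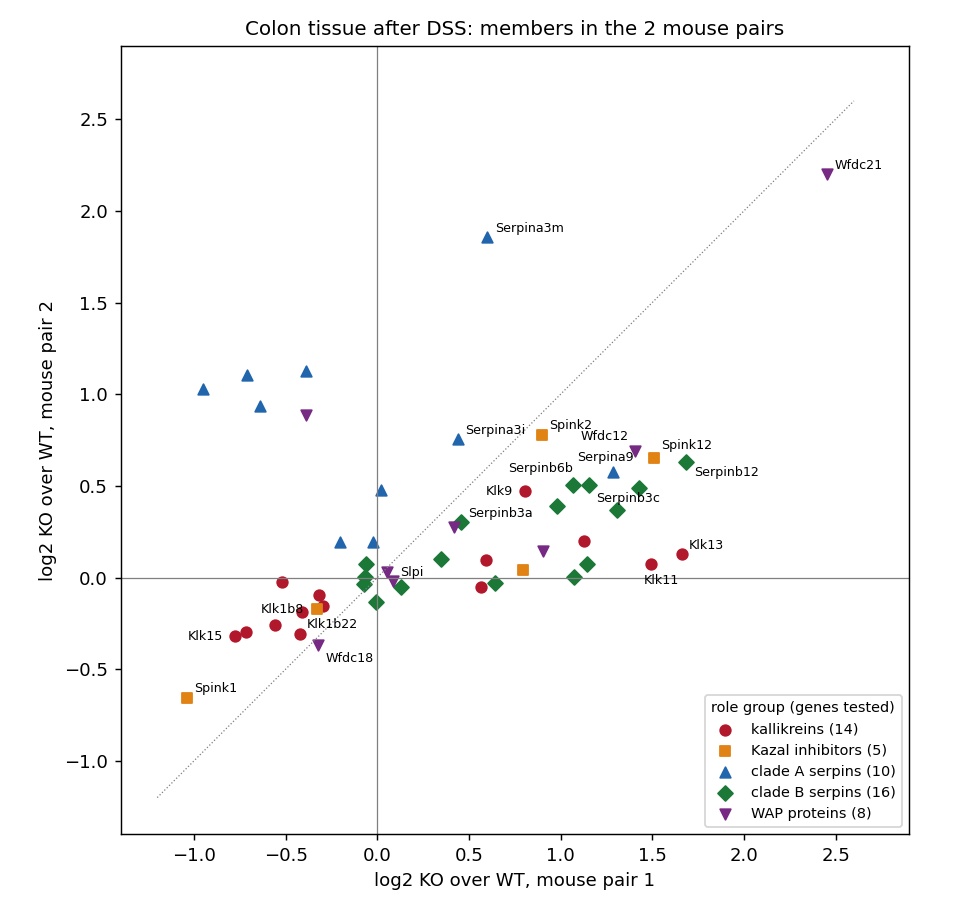
Log2 KO over WT ratio in mouse pair 1 (x axis) against mouse pair 2 (y axis) for the 53 members tested in colon tissue, coloured by role group, with a dotted line of equal ratios. Wfdc21 stands apart at the upper right with 2.46 and 2.20, Spink1 at the lower left with -1.04 and -0.66, and most clade B serpins lie right of the dotted line, with larger ratios in pair 1.

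The kallikreins split by their place in the gene cluster on chromosome 7, a split made after the values were seen. All 7 tested genes of the Klk1 and Klk1b group had a ratio below 0 in both pairs, where 34.6% of all tested genes did. Their mean ratios lay between -0.51 and -0.20 with a median of -0.30. The Klk1 and Klk1b4 probes matched at 48 of 55 aligned bases and those of Klk1b22 and Klk1b3 at 41 of 47. These genes may share signal, so the 7 ratios may not be 7 separate readings. Klk1 itself was at 14.72 and 14.86 in WT and 14.42 and 14.71 in KO. Those shifts are small, and the KO mouse of pair 2 lay at the level of the WT mouse of pair 1. Klk1b22, an EGF-binding kallikrein, was not well above background in any KO channel, at 7.87 and 7.85 in WT and 7.45 and 7.54 in KO. It was at least 1.23-fold lower in KO (adjusted p = 0.285), the bound taking the dimmest signal that counts as above background for KO. Klk1b8 had a log2 ratio of -0.41 (SE 0.11, adjusted p = 0.330).

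Of the 7 tested kallikreins from Klk4 to Klk15, 6 had a ratio above 0 and the median was 0.64. Klk9 was at 9.61 and 9.50 in WT and 10.41 and 9.97 in KO, with both KO mice above both WT mice and a log2 ratio of 0.64 (SE 0.12, adjusted p = 0.277). In Klk8, Klk11 and Klk13, proteases of squamous epithelia, 1 WT mouse set the ratio. Klk11 was at 12.51 and 13.76 in WT and 14 and 13.83 in KO, Klk13 was at 10.07 and 11.57 in WT and 11.73 and 11.69 in KO, and Klk8 was at 10.84 and 11.61 in WT and 11.97 and 11.81 in KO. In each of the 3 the WT mouse of pair 1 was low and the other 3 mice lay close together, so the ratio was 1.49, 1.66 and 1.13 in pair 1 and 0.07, 0.13 and 0.20 in pair 2. Klk15 was the exception of the group, at 8.73 and 8.28 in WT and 7.96 in both KO mice.

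**Figure D2:**
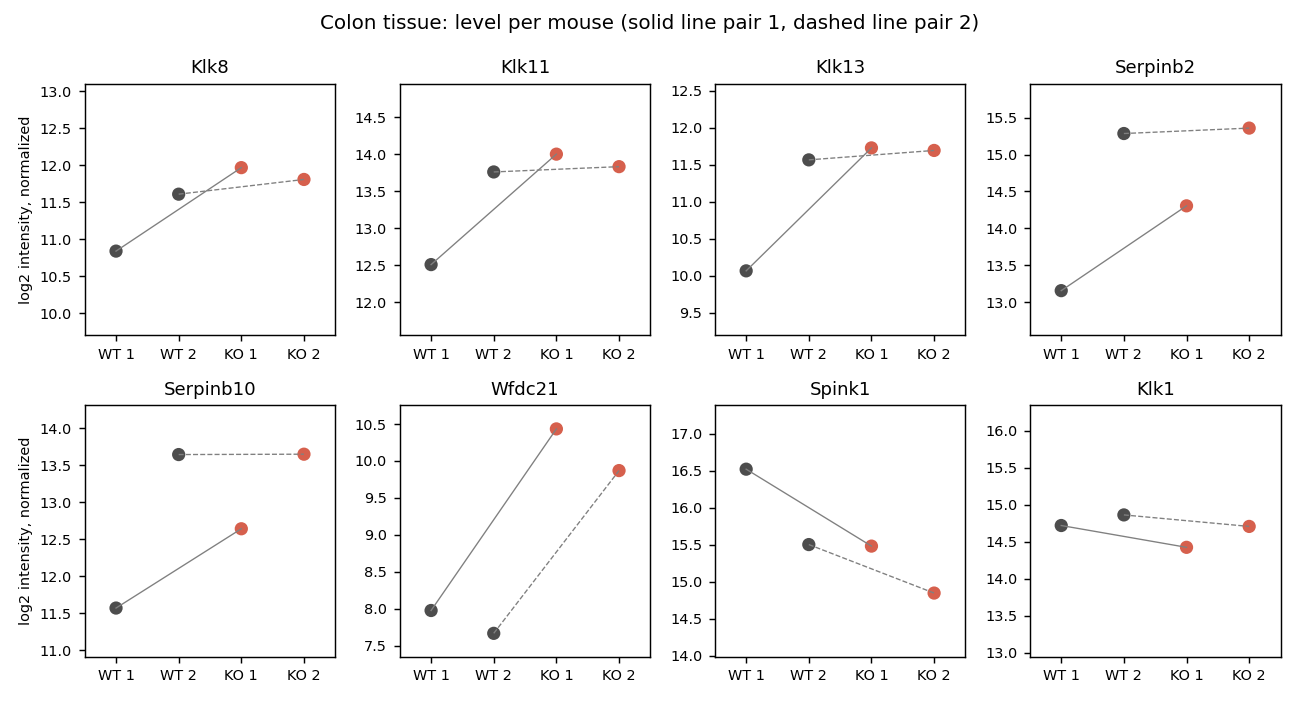
Normalised log2 intensity of 8 members in each of the 4 mice (WT and KO of pairs 1 and 2), with a line joining the mice of a pair. In Klk8, Klk11 and Klk13 the WT mouse of pair 1 lies below the other 3 mice, as at 12.51 against 13.76 to 14 for Klk11, while Wfdc21 is higher in both KO mice.

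Clade B serpins are encoded in a cluster on chromosome 1 and one on chromosome 13. All 10 tested genes of the chromosome 1 cluster had a mean ratio above 0, with a median of 0.57. Of the 10, 8 were above 0 in both pairs, where 32.3% of all tested genes were. Other groups leaned the same way. All 6 tested clade A serpins whose symbols do not begin with Serpina1 had a mean ratio above 0. So did all 4 tested whey acidic protein genes on chromosome 2. Serpinb3a and Serpinb3c, mouse relatives of the squamous cell carcinoma antigens, had ratios of 0.38 (SE 0.08, adjusted p = 0.286) and 0.83 (SE 0.21, adjusted p = 0.320). Serpinb3c was at 13.81 and 13.71 in WT and 14.97 and 14.22 in KO, while Serpinb3a followed the pairs, at 14.97 and 13.89 in WT and 15.42 and 14.19 in KO. Their probes matched at 43 of 48 aligned bases, so the 2 genes may share signal. Serpinb2, an inhibitor of urokinase, was at 13.16 and 15.28 in WT and 14.31 and 15.36 in KO. Serpinb10 was at 11.57 and 13.65 in WT and 12.64 and 13.65 in KO. Both had their lowest level in the WT mouse of pair 1 and ratios of 0.07 and 0.00 in pair 2.

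Of the 6 tested genes on chromosome 13, 3 had a ratio above 0 and the median was -0.01. Serpinb6b was at 9.17 and 9.64 in WT and 10.23 and 10.14 in KO, with both KO mice above both WT mice and a log2 ratio of 0.79 (SE 0.18, adjusted p = 0.300). Serpinb9, an inhibitor of granzyme B, was at 10.70 and 11.39 in WT and 11.68 and 11.78 in KO, a log2 ratio of 0.68 (SE 0.19, adjusted p = 0.334). The bright genes Serpinb1a and Serpinb6c differed little, with ratios of -0.05 and -0.03.

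Clade A serpins made up 10 of the 53. Serpina3m, of the mouse antichymotrypsin group, was at 9.80 and 9.03 in WT and 10.40 and 10.89 in KO, a log2 ratio of 1.23 (SE 0.39, adjusted p = 0.356). Serpina9, a serpin of germinal centre B cells, had 0.93 (SE 0.23, adjusted p = 0.314) and Serpina3i 0.60 (SE 0.11, adjusted p = 0.280). The pairs disagreed for several others: Serpina1a had -0.95 in pair 1 and 1.03 in pair 2, and Serpina3g had -0.64 and 0.94. For Serpina1a and Serpina1c the probes matched at 50 of 51 aligned bases, so the 2 genes cannot be told apart.

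**Figure D3:**
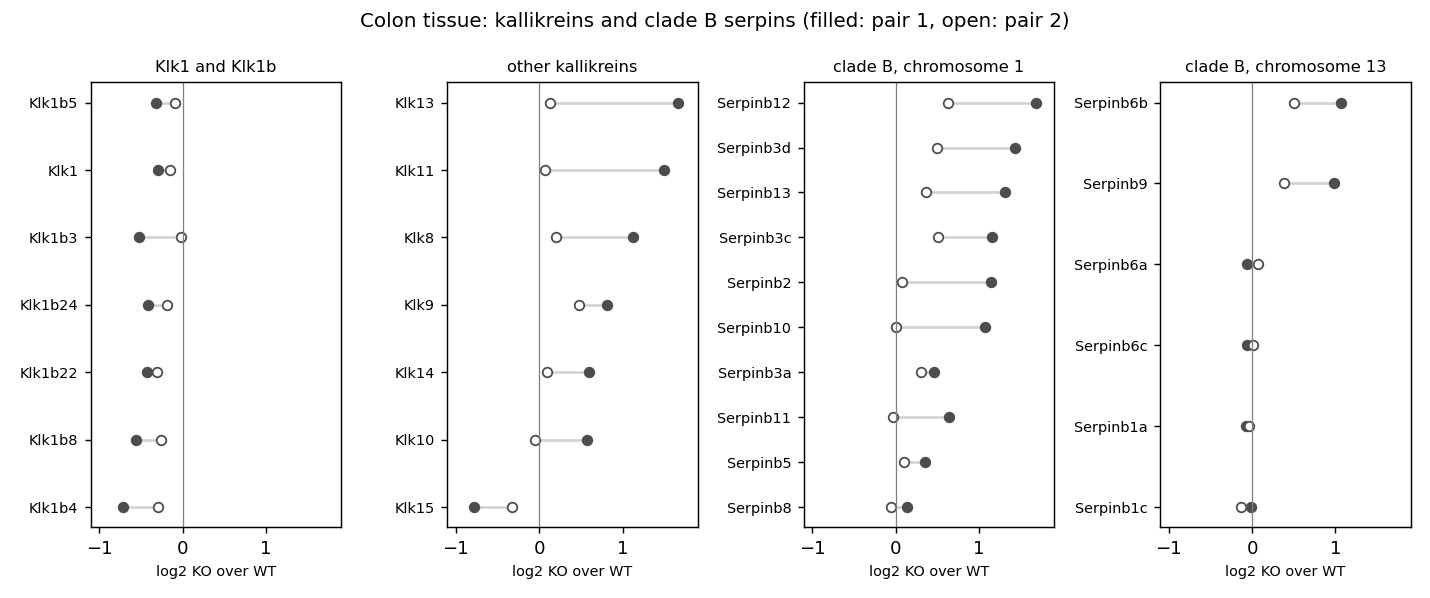
Log2 KO over WT ratio in colon tissue for the Klk1 and Klk1b genes, the other kallikreins, and the clade B serpins of chromosomes 1 and 13, with mouse pair 1 filled and pair 2 open. The Klk1 and Klk1b genes lie below 0 in both pairs, and in the other kallikreins and the chromosome 1 serpins pair 1 reaches 1.66 and 1.69 and pair 2 reaches 0.47 and 0.63.

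Over all 53 members the ratio was larger in size, whatever its sign, in pair 1 for 41. The median of the signed ratios was 0.35 in pair 1 and 0.13 in pair 2. The spread over all genes was wider in pair 1 as well, with an SD of 0.45 against 0.31. The 17 members with a mean level of 14 or more over the 4 mice had ratios of at most 0.85 in size, and the 36 dimmer ones reached 2.33. Markers of other cell types in the tissue were read beside the members. Of the 16 cornified skin markers, 12 were tested and all 12 had a ratio above 0, with a median of 0.37, and their summed level was 19.48 and 19.60 in WT and 19.83 and 19.68 in KO, with Krt2 and Krt77 never above background. Of 14 squamous epithelium markers 13 were above 0, with summed levels of 20.43 and 20.68 in WT and 20.75 and 20.73 in KO and medians of 0.35 in pair 1 and 0.04 in pair 2. All 8 macrophage, 8 fibroblast and 9 skeletal muscle markers tested were above 0, with medians of 0.26, 0.17 and 0.39. Other lists were mixed: 5 of 7 neutrophil markers tested (median 0.16), 3 of 6 mast cell and 2 of 4 cytotoxic lymphocyte markers were above 0. The 3 pancreatic acinar and 4 hepatocyte markers tested were all below 0, with medians of -0.37 and -0.29. By pair, over all markers of a list on the array, macrophage medians were 0.02 in pair 1 and 0.62 in pair 2. Fibroblast medians were 0.04 and 0.28, so both lists had the larger median in pair 2, unlike the members. Skeletal muscle medians were 0.53 and 0.25. The 12 general epithelium markers were all below 0, with a median of -0.12 and summed levels of 20.83 and 20.73 in WT and 20.69 and 20.64 in KO. Of the 10 colonocyte markers 9 were below 0, with a median of -0.29 and summed levels of 19.25 and 19.15 in WT and 19.04 and 19.06 in KO. All 8 goblet cell markers were below 0 as well, with a median of -0.17 and summed levels of 19.82 and 19.73 in WT and 19.62 in both KO mice. Their part in the member ratios was not tested, and in bulk tissue fewer cells of a type and less RNA per cell cannot be told apart.

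The chromosome 1 serpins leaned one way in tissue, as some other groups of members did, and their promoters were read from RefSeq (GRCm38.p6). It held an entry for 86 of the 111 members (102 entries). The letters TGANTCA, the core recognised by AP-1 factors, were searched on both strands in the 250 bases before the start. They were found in 8 of 13 entries (61.5%, 7 of 11 genes) of this cluster, in 0 of 18 entries of other clade B serpins, and in 6.75% of 32851 promoters. Over all members they were in 13 of 102 entries (12.7%). Outside the cluster, Serpina1a, Serpina1b, Serpina1c, Serpina1d and Wfdc11 held them. Serpina1a, Serpina1b and Serpina1c had tissue ratios of 0.04, 0.09 and 0.20. The letters TATAAA were in 9 of the 13 (69.2%) and in 12.4% of all promoters. The letters CTTTGAT of Tcf/Lef factors, TTTATNG of Cdx factors and a p53 half-site were in 0 of the 13, against 3.21%, 9.81% and 7.13% of all promoters. A match of letters is a description and not a bound site. Below are the last 150 bases before the start for 4 of these genes tested in tissue, with the motif in capitals.
Serpinb5 (chr1:106861025-106861174, plus strand): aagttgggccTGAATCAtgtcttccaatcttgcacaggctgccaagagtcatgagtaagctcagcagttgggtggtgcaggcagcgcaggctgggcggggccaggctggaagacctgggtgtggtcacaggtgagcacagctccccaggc
Serpinb12 (chr1:106934299-106934448, plus strand): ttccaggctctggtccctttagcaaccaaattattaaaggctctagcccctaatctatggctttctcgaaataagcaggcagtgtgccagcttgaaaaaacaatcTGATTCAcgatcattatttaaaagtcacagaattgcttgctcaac
Serpinb2 (chr1:107511273-107511422, plus strand): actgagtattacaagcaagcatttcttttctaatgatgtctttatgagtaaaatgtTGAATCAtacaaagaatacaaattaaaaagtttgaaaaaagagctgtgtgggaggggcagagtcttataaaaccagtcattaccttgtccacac
Serpinb10 (chr1:107528853-107529002, plus strand): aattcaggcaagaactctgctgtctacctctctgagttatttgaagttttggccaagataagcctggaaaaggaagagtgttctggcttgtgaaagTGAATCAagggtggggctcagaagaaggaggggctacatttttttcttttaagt

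The motif starts 140, 45, 94 and 54 bases before the start in these 4. Their tissue ratios were 0.22 for Serpinb5, which encodes maspin, 1.16 for Serpinb12, 0.61 for Serpinb2 and 0.54 for Serpinb10, and none was called. Serpinb8 and Serpinb11 also hold the motif, with tissue ratios of 0.04 and 0.31 and pair 2 at -0.05 and -0.03, and Serpinb7 holds it and was not above background in tissue. A dimmer Serpinb8 probe, also above background in tissue, gave 0.77. Genes of the cluster without the motif had ratios as large, with 0.96 for Serpinb3d and 0.83 for Serpinb3c.

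In organoids, the KO over WT contrast asked which members differ in cultures of epithelium alone. The KO cultures were also selected with Nutlin-3A, and the exact genotype of the WT animals is not given. The deletion, the Cre line and the selection therefore cannot be told apart here. No gene was called, 0% of 9988 in each direction, with a smallest adjusted p of 0.0635 and 544 genes at an unadjusted p under 0.05. Of the 22 members tested, 13 had a ratio above 0 and 9 below, where 6115 of all 9988 genes were above 0. The median was 0.13 against 0.06 over all genes. Both replicates were above 0 for 9 (40.9%), where 37.9% of all genes were. They were below 0 for 6 (27.3%), where 20.8% of all genes were. Slpi was at 11.46 and 10.71 in WT and 12.38 and 13.28 in KO, so both KO samples lay above both WT samples. Its log2 ratio was 1.74 (SE 0.45, n = 2 per group, adjusted p = 0.642), with 0.91 and 2.57 in the replicates and 1 of 6 arrays left out as an outlier spot. As a mean over its probes the ratio was 0.39, and another Slpi probe, not above background in organoids, gave 0.10. Wfdc2, a secreted epithelial member of the same family, was at 14.47 and 13.95 in WT and 15.14 and 14.66 in KO, a log2 ratio of 0.68 (SE 0.16, adjusted p = 0.582). Wfdc18 had 0.55 (SE 0.31, adjusted p = 0.994).

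Spink1 was at 14.88 and 13.34 in WT and 13.65 and 12.95 in KO, with overlapping groups and a log2 ratio of -0.81 (SE 0.24, adjusted p = 0.778), which was -0.25 with outlier spots kept and -0.44 without WT replicate 1. Spink4, a Kazal protein of goblet cells, had a ratio of 0.60 (SE 0.19, adjusted p = 0.80) and Spink2 had 0.37. Among the kallikreins 6 of 7 were above 0, and 3 of the 7 were so in both replicates. Klk1b5 had 0.62 (SE 0.32, adjusted p = 0.959) and Klk1 had 0.33. Klk1b11 had 1.12 (SE 0.45, adjusted p = 0.911), which 1 KO sample set: it was at 7.44 and 6.94 in WT and 9.40 and 7.22 in KO, and its ratio was 0.27 without KO replicate 1 and 0.69 with outlier spots kept. The 7 clade B serpins lay between -0.25 and 0.27, with Serpinb6c at -0.25, Serpinb1a at -0.23 and Serpinb9 at 0.27. The clade A serpin tested, Serpina1c, had 0.08.

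KOWI organoids were compared with WT organoids, groups that differ in genotype and in medium together. Spink1, Klk1b5, Serpinb1a and Serpinb6c fell and Spink2 and Wfdc2 rose. These 6 are 2 of 22 members higher (9.09%), where 3.3% of the 9988 genes tested were called higher, and 4 of 22 lower (18.2%), where 2.03% were. Of the 22, 15 had a ratio below 0, with a median of -0.27 against 0.02 over all genes, and both replicates were below 0 for 13 (59.1%), where 29.7% of all genes were, and above 0 for 5 (22.7%), where 33.1% were. Over 2-fold in both replicates were 3 members higher (13.6%), where 3.11% of all genes were, and 3 lower (13.6%), where 1.99% were. With the outlier spots kept in, none of the 6 was called: 49 genes of the array were higher and 15 lower, and the ratios were -2.59 for Spink1 (adjusted p = 0.180), -2.49 for Klk1b5 (0.0767), -1.26 for Serpinb1a (0.0556), -0.98 for Serpinb6c (0.0881), 1.49 for Spink2 (0.0571) and 1.54 for Wfdc2 (0.0523).

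Spink1 had the largest change of the set. It was at 14.88 and 13.34 in WT, 13.65 and 12.95 in KO, and 10.81 and 9.90 in KOWI. Both KOWI samples lay below all 4 others, and the fall from WT was 13.5-fold (log2 ratio -3.75, SE 0.24, adjusted p = 0.00887), with -4.07 and -3.44 in the replicates. One array was left out of this fit as an outlier spot. Spink4 was at 8.06 and 8.45 in WT and 7.59 and 7.65 in KOWI, and its log2 ratio of -0.63 was not called (SE 0.19, adjusted p = 0.127).

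Spink2 rose from a level not well above background in any of the 4 WT channels. It was at 6.83 and 6.71 in WT, 7.43 and 6.85 in KO, and 8.40 and 8.10 in KOWI, so both KOWI samples were the highest. The fitted log2 ratio was 1.48 (SE 0.19, adjusted p = 0.0239). With the dimmest signal that counts as above background in place of WT, the rise was at least 2.67-fold on the fitted scale. The fit itself gave 2.79-fold. Levels per channel normalised between arrays (8.42 in KOWI, 6.91 as the bound for WT) gave a bound of 2.86-fold. That bound is on another scale and is not a lower limit of the fitted ratio. The size moved with the treatment of the arrays: the log2 ratio was 3.77 from the scanner's processed signals and 3.78 from the authors' deposited log2 ratios. The probe lies at chr5:77634154-77634213 (mm9, minus strand).

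Klk1b5 was at 11.28 and 11.44 in WT, 12.15 and 11.81 in KO, and 9.35 and 8.25 in KOWI. Both KOWI samples lay below all others, by 5.89-fold against WT (log2 ratio -2.56, SE 0.32, adjusted p = 0.0233), and the replicates gave -1.93 and -3.19. The Egfbp2 probe, which shares 54 of 59 aligned bases with it, gave nearly the same ratio of -2.57 (SE 0.40, adjusted p = 0.0336), so which of the 2 genes, or both, supplied the signal cannot be told apart. The Klk1b16 probe, equal at 47 of 56 aligned bases, was not above background and gave -0.05. The separate Klk1b26 probe, at chr7:51271516-51271671 (mm9, plus strand), was not above background in organoids either and gave 0.04. All 7 kallikreins tested had a ratio below 0, and 6 of them in both replicates. Klk1 was at 8.15 and 8.36 in WT, 8.77 and 8.39 in KO, and 7.78 and 7.43 in KOWI, a log2 ratio of -0.64 that was not called (SE 0.21, adjusted p = 0.155). Klk1b3 had -0.54 (SE 0.18, adjusted p = 0.156).

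**Figure D4:**
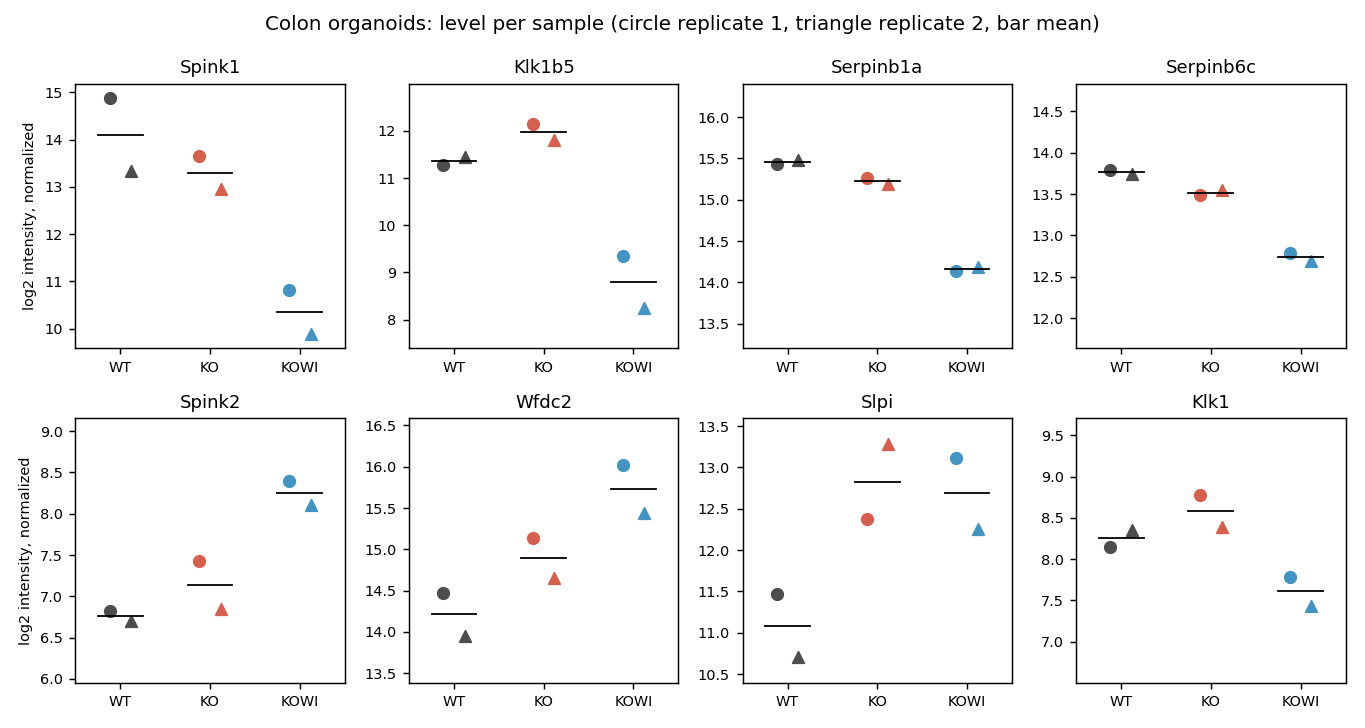
Normalised log2 intensity of 8 members in each of the 6 organoid samples (WT, KO and KOWI, 2 samples each). Spink1, Klk1b5, Serpinb1a and Serpinb6c are lowest in both KOWI samples and Spink2 and Wfdc2 highest, while Slpi is above WT in both KO and KOWI.

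Serpinb1a, an intracellular inhibitor of neutrophil elastase-type proteases, was at 15.43 and 15.48 in WT, 15.26 and 15.19 in KO, and 14.13 and 14.18 in KOWI. The 3 groups did not overlap, and the 2 samples of each lay close together. It fell 2.45-fold (log2 ratio -1.29, SE 0.16, adjusted p = 0.0238), by the same -1.29 in each replicate, with its probe at chr13:32934693-32934752 (mm9, minus strand). Its neighbour Serpinb1c had -0.79 and was not called (SE 0.21, adjusted p = 0.0955). Serpinb6c was at 13.79 and 13.75 in WT, 13.49 and 13.54 in KO, and 12.79 and 12.69 in KOWI, again with separate groups, and fell 2.04-fold (log2 ratio -1.03, SE 0.16, adjusted p = 0.0339). The dimmer Serpinb6a probe, which shares 39 of 42 aligned bases with the Serpinb6c probe, gave -0.91, whereas the brightest Serpinb6a probe gave -0.26. The Serpinb6c probe and the dimmer Serpinb6a probe may share signal, so which of the 2 genes fell cannot be told apart. The Serpinb6e probe gave -0.18. The other clade B serpins tested lay between -0.26 and 0.46.

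Wfdc2 was at 14.47 and 13.95 in WT, 15.14 and 14.66 in KO, and 16.02 and 15.44 in KOWI. Both KOWI samples were above all 4 others, and it rose 2.86-fold (log2 ratio 1.52, SE 0.16, adjusted p = 0.0189), with 1.54 and 1.49 in the replicates. Its probe lies at chr2:164393935-164393994 (mm9, plus strand). Slpi, at chr2:164179849-164179908 (minus strand), was at 13.12 and 12.25 in KOWI against 11.46 and 10.71 in WT, without overlap, and its log2 ratio of 1.60 was not called (SE 0.45, adjusted p = 0.112). It was 0.88 with outlier spots kept, 0.91 from the authors' deposited log2 ratios and 0.13 as a mean over probes. Wfdc18 had 0.83 (SE 0.31, adjusted p = 0.193), and Wfdc13 0.07. The clade A serpin Serpina1c had -0.28 (adjusted p = 0.546).

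Leaving out single samples ended most of these calls, as did other treatments of the arrays. None of the 6 was called from the authors' deposited log2 ratios, and Spink1 and Spink2 alone were from the scanner's processed signals. Without WT replicate 2 or without KOWI replicate 2 none of the 6 was called, without WT replicate 1 Klk1b5 and Spink1 were, and without KO replicate 2 or KOWI replicate 1 only Klk1b5 was. Spink1 could not be fitted without WT replicate 2, KOWI replicate 1 or either KO replicate. Klk1b5 moved to -2.06 without WT replicate 2 and to -1.99 without KOWI replicate 2 (adjusted p = 0.111 and 0.127), and over the samples left out in turn Wfdc2 stayed between 1.47 and 1.54 and Serpinb1a between -1.35 and -1.24.

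In the same contrast 7 of 8 colonocyte markers tested were called lower, with a median of -2.60 and summed levels of 18.54 and 18.61 in WT, 17.92 and 17.99 in KO, and 16.77 and 17.10 in KOWI. The 6 goblet cell markers tested were all below 0 and none was called, with summed levels of 17.40 and 17.69 in WT, 17.57 and 17.91 in KO, and 17.32 and 17.18 in KOWI. Their part in the member changes was not tested.

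**Figure D5:**
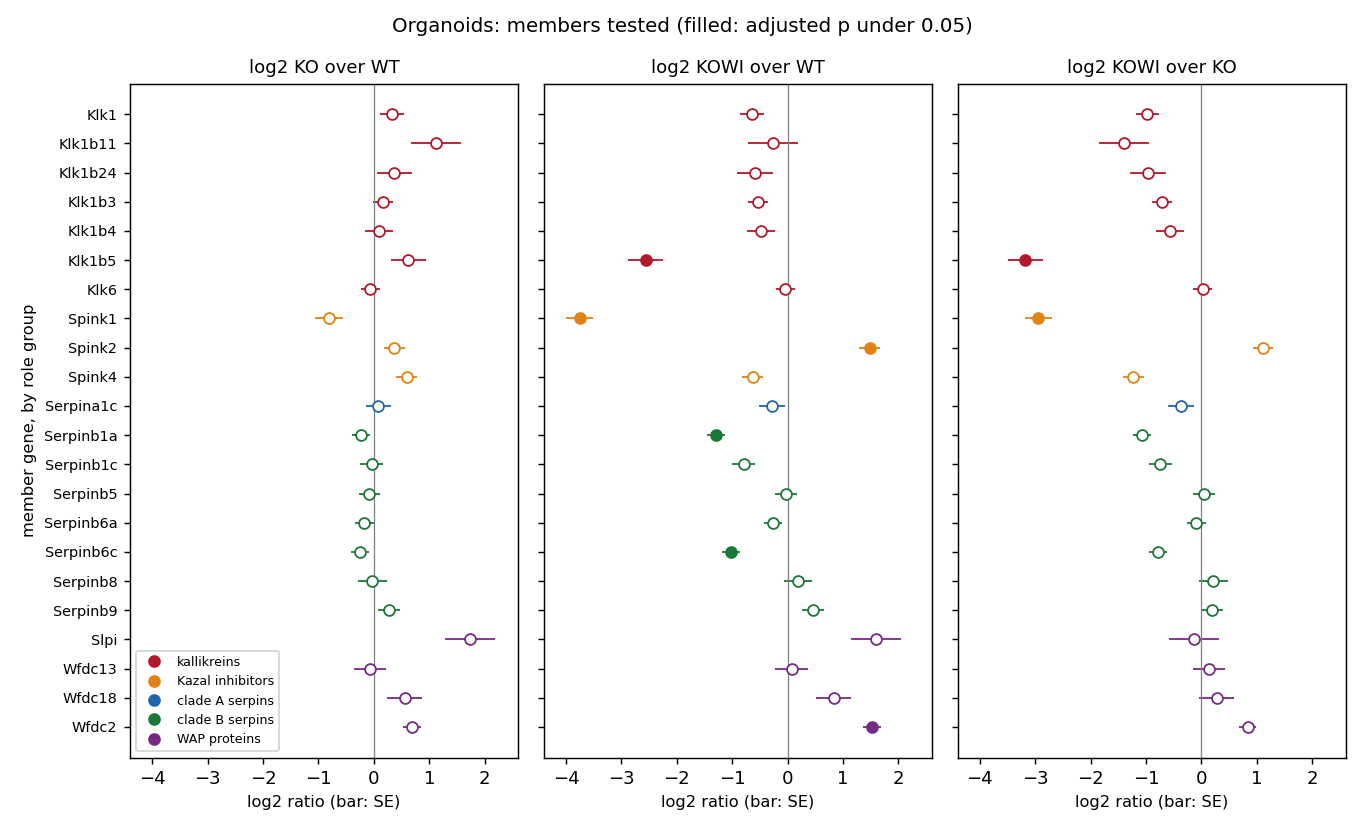
Log2 ratio with its standard error for the 22 members tested in organoids in the 3 contrasts, by role group, with filled points for an adjusted p under 0.05. No point is filled in KO over WT, 6 are in KOWI over WT and 2, Spink1 and Klk1b5, in KOWI over KO.

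KOWI over KO compares cultures of the same genotype label and shares its KOWI samples with the contrast above, so the values stand side by side and are not independent. The 2 groups differ in medium and in the Wnt-independent label together, and these cannot be told apart here. Spink1 and Klk1b5 fell here too. They are 2 of 22 members (9.09%), where 0.25% of the genes tested were called lower, and no member was called higher, where 0.16% were. Spink1 was 7.70-fold lower (log2 ratio -2.94, SE 0.24, adjusted p = 0.0259), with -2.84 and -3.05 in the replicates, and Klk1b5 9.05-fold lower (log2 ratio -3.18, SE 0.32, adjusted p = 0.0369), with -2.79 and -3.56. With outlier spots kept neither was called, at -2.34 (adjusted p = 0.399) and -3.12 (adjusted p = 0.140). Neither was called from the authors' log2 ratios, from the scanner's processed signals or without KOWI replicate 2, and without KO replicate 2 Klk1b5 was not.

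The other members called against WT had ratios of the same sign against KO and missed the threshold: Serpinb1a -1.07 (adjusted p = 0.0725), Serpinb6c -0.78 (0.116), Spink2 1.11 (0.0796) and Wfdc2 0.83 (0.0965). Spink4 had -1.23 (SE 0.19, adjusted p = 0.0727), larger in size than against WT, with KO above WT. Among the kallikreins 6 of 7 were below 0 in both replicates, with Klk1 at -0.97 (adjusted p = 0.128) and Klk1b3 at -0.70 (0.164). Slpi was at 12.38 and 13.28 in KO and 13.12 and 12.25 in KOWI, with overlapping groups and a log2 ratio of -0.14 (SE 0.45, adjusted p = 0.956). Both replicates were below 0 for 12 of the 22 (54.5%), where 29.3% of all genes were, and above 0 for 2 (9.09%), where 23.7% were.

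At the probe used for each gene, the 17 members lost to outlier spots in organoids could be read only with those spots kept. A dimmer Serpina1e probe, above background in organoids, could be fitted without them. It gave -0.58 in KOWI over WT and -0.64 in KOWI over KO. Serpinb11 was at 12.58 and 12.80 in WT, 12.62 and 11.67 in KO, and 12.50 and 12.84 in KOWI, with overlapping groups. Serpinb6b was at 9.92 and 10.98 in WT, 10.49 and 10.78 in KO, and 12.64 and 11.35 in KOWI, so the KOWI samples were the highest, with ratios over WT of 2.72 and 0.37. These values carry no test.

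Targets and partners of the inhibitors were taken from 6 pathway lists. In tissue no gene of the lists was called. Prss23, a secreted serine protease, had a ratio of 1.26 (SE 0.08, adjusted p = 0.256), Serpinf1 or pigment epithelium-derived factor 1.21 (SE 0.15, adjusted p = 0.256), and F2rl1, the receptor PAR2 that trypsin and several kallikreins activate, -0.69 (SE 0.12, adjusted p = 0.268). Of the 13 membrane and epithelial serine proteases tested 9 were above 0, and of the 7 leukocyte granule proteases 2 were, with Ctsg, cathepsin G, at 0.41 (adjusted p = 0.384). The 12 other inhibitors tested split into 7 above and 5 below 0.

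In KOWI over WT organoids 2 genes of the lists were called. F2r, the thrombin receptor PAR1, was at 8.71 and 8.24 in WT, 10.06 and 8.89 in KO, and 10.94 and 10.79 in KOWI, and rose by a log2 ratio of 2.39 (SE 0.27, adjusted p = 0.0217). Plau, urokinase, was not well above background in any WT channel, at 7.04 and 6.68 in WT, 8.01 and 7.24 in KO, and 8.23 and 7.82 in KOWI, and rose with a fitted log2 ratio of 1.16 (SE 0.19, adjusted p = 0.0341). With outlier spots kept F2r was still called, at 2.45 (adjusted p = 0.0471), and Plau was not, at 1.18 (adjusted p = 0.0757), and F2r was not called without WT replicate 1 or KOWI replicate 2. F2r also missed the threshold from the scanner's processed signals (2.74, adjusted p = 0.0817) and from the authors' deposited log2 ratios (2.87, adjusted p = 0.0980). Plau was not called from either (3.04 and 3.06, adjusted p = 0.0808 and 0.112), as a mean over its probes (0.57, adjusted p = 0.0849), without the filter on dim probes (adjusted p = 0.0566), without the replicate block (adjusted p = 0.102) or in 5 of the 6 fits that each left out 1 sample. F2rl1 had -0.20 (adjusted p = 0.681) and Plat, tissue plasminogen activator, 0.85 (adjusted p = 0.100). Of the 6 membrane and epithelial proteases tested 5 were above 0, led by Hpn, the membrane protease hepsin, at 1.59 (adjusted p = 0.0567), and none was called. Prss3, a trypsin, had 0.69 (adjusted p = 0.0798), and the inhibitor Ambp had 0.79 (adjusted p = 0.150). In KO over WT F2r had 1.00 (adjusted p = 0.715) and Plau 0.77 (adjusted p = 0.596), and no gene of the lists was called there or in KOWI over KO.

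Promoter entries were found for 4 of the 6 members called in KOWI organoids, 7 entries in all. Of the 5 motifs searched, 4 were in none of these entries, and the p53 half-site was in 1, of Spink2, and in 7.13% of all promoters.

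The KO over WT ratios were last compared between tissue and organoids, as a difference. Of the 19 members tested in both, none differed by the test of that difference (0 of 9097 genes in all, smallest adjusted p over all genes 0.162, with 1119 genes and 5 members at an unadjusted p under 0.05). In 5 of the 19 both tissue ratios lay on the opposite side of 0 from both organoid ratios, and in 5 all 4 ratios had the same sign. Spink1 was of the latter kind, with -0.85 in tissue and -0.81 in organoids, and Spink2 had 0.84 and 0.37. Klk1b5 was opposed, at -0.20 in tissue and 0.62 in organoids.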

How the data were processed

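The scanner files hold spot intensities of the red and green channels, which the authors extracted with Agilent Feature Extraction 12.2.0.7 (protocol GE2_1200_Dec17), per the file headers. The log10 ratio in the same deposited files is processed Cy5 over Cy3 by that software, per the file headers, and served only to check direction. The authors' deposited value table holds log2 ratios, normalized with limma per the submitters' processing notes. It runs as Cy5 over Cy3 with slopes of 0.967 to 0.999 on the scanner's ratio and medians from -0.000581 to 0.0171, and whether it was centred stays unknown.

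Mean intensities were corrected with normexp (offset 50) and normalised by loess within arrays with limma 3.58.1 in R 4.3.3. Outlier spots were left out, spots of a probe averaged and 1 probe taken per gene, the brightest over all 10 arrays. Tissue ratios were averaged per mouse pair and tested against 0. The 6 organoid arrays form a loop, fitted as 1 value per sample, and groups were tested with the replicate number, which equals the dye, as a term. Tissue and organoids lie on separate slides, so only ratios were compared. 1 tissue label numbers its KO sample unlike its title and the sample's other array, and the title was used. An "at least" fold sets the brighter group's mean against the lowest signal that counts as above background. Scripts were tested on simulated data.

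The members and lists were chosen with earlier results of these data known. Named are members called in a contrast, the 3 of each family with the smallest p, and Slpi. Others, such as Klk8, Klk11, Klk13, Serpinb2, Serpinb10, Serpinb12 and Klk15, were chosen after their values were seen. In pathway lists up to 3 genes were named, those of smallest p. Alternatives were other background corrections, filters and probes, outlier spots kept, arrays taken as independent and each sample left out.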

Additional observations from a re-analysis of the deposited data

Results flagged for a closer look

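For 5 members all tissue KO over WT ratios lay on the other side of 0 from all organoid ones, which is what marked them. The difference of tissue minus organoid was tested with limma over 9097 genes and none of the 5 was called. It was -0.90 for Wfdc18 (adjusted p = 0.208), with -0.35 in tissue and 0.55 in organoids, and -0.85 for Spink4 (adjusted p = 0.306), with -0.25 and 0.60. It was -0.82 for Klk1b5 (adjusted p = 0.336), with -0.20 and 0.62, and -0.55 for Klk1 (adjusted p = 0.439), with -0.23 and 0.33. Serpinb5 went the other way, with 0.31 (adjusted p = 0.480) from 0.22 in tissue and -0.08 in organoids.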

How the results depend on the processing

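The number of arrays limits these results: with 2 samples a group, KOWI calls depend on single samples and on outlier spots. No member call reversed its sign under any alternative run. In KOWI over WT the 4 lower and 2 higher members became 0 and 0 with outlier spots kept or from the authors' value table, 1 and 1 from the scanner's processed signals, 9 and 4 with arrays taken as independent, and 2 and 1 with probes under log2 intensity 14, and 1 was higher with only probes above background in every group. Leaving out 1 sample each gave 0 to 4 lower and 0 to 2 higher. In KOWI over KO the 2 lower became 0 from processed signals, the value table, without a filter on dim probes and with outlier spots kept, 1 with a normexp offset of 16 and 9 with arrays as independent (and 2 higher), and 0 to 2 when leaving out 1 sample. Arrays as independent also gave 2 higher members in organoid KO over WT, and 5 higher and 2 lower in tissue.

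Without the replicate block, KOWI over WT called the same 6 members, KOWI over KO called 1, Klk1b5, and tissue 0. The replicate deviations correlated at 0.22 between WT and KO, 0.17 between WT and KOWI and -0.02 between KO and KOWI over 9988 genes, so the numbers were not shown to pair the samples. Choosing the brightest probe among those that can be fitted, an alternative added after seeing the data, called the same 6 and 2.

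Of the single members named, 12 values changed sign, none of them called. Leaving out samples took Serpina1c in organoid KO over WT to between -0.26 and 0.42, Wfdc13 in KOWI over KO to between -0.30 and 0.56, Wfdc18 there to between -0.30 and 0.77, and in tissue, with channels unpaired, Serpinb3a to between -0.24 and 0.99 and Wfdc18 to between -2.26 and 1.57. The scanner's processed signals, against the fit reported, gave -1.97 for Spink4, -1.69 for Klk1 and -1.60 for Klk1b3 in KOWI over KO and 1.37 for Wfdc18 in KOWI over WT, each over 1.5 times larger. Slpi in tissue was -0.00330 as a mean over all probes and between -0.022 and 0.0851 when leaving out 1 sample. The cause was not tested.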
